A study of Mus musculus with 4 samples.

Results

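*Lcn2*, *Saa3*, *Serpina3n*, *Cp*, *Chil1*, *Itih4*, *Lbp* and *Hp* encode secreted proteins of the acute-phase response, and their levels were followed in single arterial cells of mice. They are 8 of the 34469 genes listed over 4 libraries and were picked by name, with earlier results of the same libraries known, so that their levels below are descriptions. The study asked how loss of telomere protection alters vascular smooth muscle cells (VSMCs) in atherosclerosis and after arterial injury. Plaque cells came from the aorta and carotid artery of C57Bl/6 mice that all carried Myh11-CreERt2, the Confetti reporter and loss of ApoE, fed a high fat diet after tamoxifen. The first library was Myh11-CreERt2/Confetti/ApoE-/- (1502 cells), and the second also carried Sm22a-Trf2T188A (929 cells); they are called ApoE-/- and Trf2T188A/ApoE-/- here. Carotid arteries taken 28 days after ligation came from C57Bl/6 wild type control mice (4967 cells) and from SM22a-TRF2T188A mice (5392 cells), both with intact ApoE as far as the labels say. The transgene encodes a point mutant of the telomere-binding protein TRF2 under a minimal Sm22a promoter, which is active in arterial VSMCs, and the Cre marks only cells that used the *Myh11* promoter when tamoxifen was given.

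The acute-phase response is the change in secreted proteins that follows infection or tissue injury. Cytokines such as interleukin-6 and interleukin-1 act through STAT3, C/EBP and NF-kappaB factors, mainly in the liver, and the products bind iron, haem and bacterial lipids, inhibit proteases and stabilise the matrix. Several of the genes are also used outside the liver, and VSMCs that leave the contractile state in a plaque take on fibroblast-like, chondrocyte-like or inflammatory features.

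In GRCm38 (GENCODE M21) the genes lie at chr2:32384633-32388252 for *Lcn2*, chr7:46711998-46715700 for *Saa3* and chr8:109575128-109579172 for *Hp* on the minus strand, and at chr12:104406729-104414329 for *Serpina3n*, chr3:19957054-20009145 for *Cp*, chr1:134182176-134190181 for *Chil1*, chr14:30886476-30902353 for *Itih4* and chr2:158306493-158332852 for *Lbp* on the plus strand. *Cp* overlaps *Hps3* on the opposite strand, and *Saa3* and *Serpina3n* belong to families of similar genes, so reads that fit several copies make their levels less certain. RefSeq promoter sequence (GRCm38.p6) was available for 6 of the 8 genes, as 250 bases before each transcription start. Saa3, Serpina3n, Chil1 and Itih4 are shown because they cover the different patterns of level described below, and stretches that overlapped an annotated exon were left out. Capitals mark a match to a C/EBP motif (TTGCNNAA, either strand) in *Saa3*, to the NF-kappaB motif in *Chil1* and to a STAT motif (TTCNNNGAA, either strand) in *Itih4*, and each sequence reads 5′ to 3′ on the strand of the gene.
Saa3: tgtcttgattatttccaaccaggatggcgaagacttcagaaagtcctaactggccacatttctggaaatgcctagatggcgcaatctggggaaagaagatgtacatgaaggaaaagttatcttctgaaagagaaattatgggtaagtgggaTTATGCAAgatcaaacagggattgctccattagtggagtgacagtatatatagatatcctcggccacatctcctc
Serpina3n: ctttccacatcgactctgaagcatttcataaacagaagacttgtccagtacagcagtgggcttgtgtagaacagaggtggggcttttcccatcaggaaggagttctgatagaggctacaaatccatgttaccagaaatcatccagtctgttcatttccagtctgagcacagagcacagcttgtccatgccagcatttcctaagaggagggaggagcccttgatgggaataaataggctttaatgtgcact
Chil1: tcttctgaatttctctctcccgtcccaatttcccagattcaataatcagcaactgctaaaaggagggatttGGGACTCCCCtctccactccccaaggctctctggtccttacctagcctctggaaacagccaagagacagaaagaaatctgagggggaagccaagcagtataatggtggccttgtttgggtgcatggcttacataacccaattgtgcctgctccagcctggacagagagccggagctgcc
Itih4: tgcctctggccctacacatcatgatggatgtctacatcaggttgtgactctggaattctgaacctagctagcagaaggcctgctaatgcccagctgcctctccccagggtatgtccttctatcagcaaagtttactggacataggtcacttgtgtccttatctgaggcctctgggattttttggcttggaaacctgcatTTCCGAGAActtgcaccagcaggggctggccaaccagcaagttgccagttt
The *Saa3* stretch lies at chr7:46715701-46715926 on the minus strand, with the motif 99 to 92 bases before the start. *Serpina3n* (chr12:104406458-104406707, plus strand) held none of these letters in the window. In *Chil1* (chr1:134181906-134182155, plus strand) the NF-kappaB motif lay 179 to 170 bases before the start, and in *Itih4* (chr14:30886226-30886475, plus strand) the STAT motif lay 51 to 43 bases before it. C/EBP matches that lay in annotated exons of the *Lcn2* window and of the second *Cp* window are not shown. Over all 32851 mouse promoters of this length, 9.56% held the C/EBP motif, 7.02% the STAT motif and 7.25% the NF-kappaB motif. A match is a description of letters and does not show that a factor binds there.

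Values are UMIs (single captured transcripts) per 10000 UMIs of the same cell, averaged over cells. Each genotype had 1 library in each experiment and the number of mice in it is not given in the sources used here, so no difference between genotypes could be tested. Intervals are 95% intervals that cover counting error only, and "higher" or "lower" compares 2 libraries and not 2 conditions. Median depth was 22765.5 and 24377 UMIs per cell in the plaque libraries and 8631 and 11153 in the ligation libraries, and the latter shared 10 cell barcodes. *Terf2*, the gene of TRF2, was not higher in the libraries labelled Trf2T188A (0.189 in ApoE-/- and 0.180 in Trf2T188A/ApoE-/-, 0.180 in control and 0.164 in Trf2T188A ligation), and whether the counting covers the transgene is not given, so this gene did not check the labels. Cells were clustered without the 8 genes and states were named from marker lists. In plaque these were contractile (724 cells in ApoE-/- and 328 in Trf2T188A/ApoE-/-), a state high in metallothioneins and *Wnt16* (220 and 171), fibromyocyte-like (157 and 121), complement-rich (111 and 84) and chondrocyte-like (81 and 63).

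In the plaque, 7 of the 8 genes were low in contractile cells and higher in fibromyocyte-like, complement-rich and chondrocyte-like cells of both libraries, while *Itih4* took a different course. For *Saa3* the chondrocyte-like part rested on 1 cell in each library. Without the highest cell of each library, *Saa3* was at 0.0203 and 0.0619 in chondrocyte-like and 0.0652 and 0.0326 in fibromyocyte-like cells. The contractile values were then 0.0204 and 0.0246. In metallothionein *Wnt16* cells, *Lcn2*, *Serpina3n*, *Cp* and *Hp* were above both contractile values as well, whereas *Saa3* (0.0512 in ApoE-/- and 0.861 in Trf2T188A/ApoE-/-), *Chil1* (0.00962 and 0.0313) and *Lbp* (0.00877 and 0.0236) lay near the contractile level in ApoE-/-. The level of all 8 genes summed was 8.16 in ApoE-/- and 8.33 in Trf2T188A/ApoE-/- contractile cells, but only 0.597 and 0.706 of this came from the 7 genes other than *Itih4*. In complement-rich cells the 7 genes summed to 41.0 and 45.1, in fibromyocyte-like cells to 15.2 and 17.7, in metallothionein *Wnt16* cells to 9.71 and 15.6, and in chondrocyte-like cells to 22.2 and 71.2. Every one of these sums lay above both contractile values. Between complement-rich and contractile cells of both libraries, 7 of 8 members were higher by the size rule, against 8.48% of all 11204 genes compared. The rule used throughout was a log2 ratio over 0.25, with 1 added to both levels. It took genes with a UMI in 10% or more of the cells on either side. *Saa3*, *Chil1*, *Lbp* and *Hp* reached 10% only on the complement-rich side. The genes were also picked with earlier results known, so this count is a description.

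**Figure D1:**
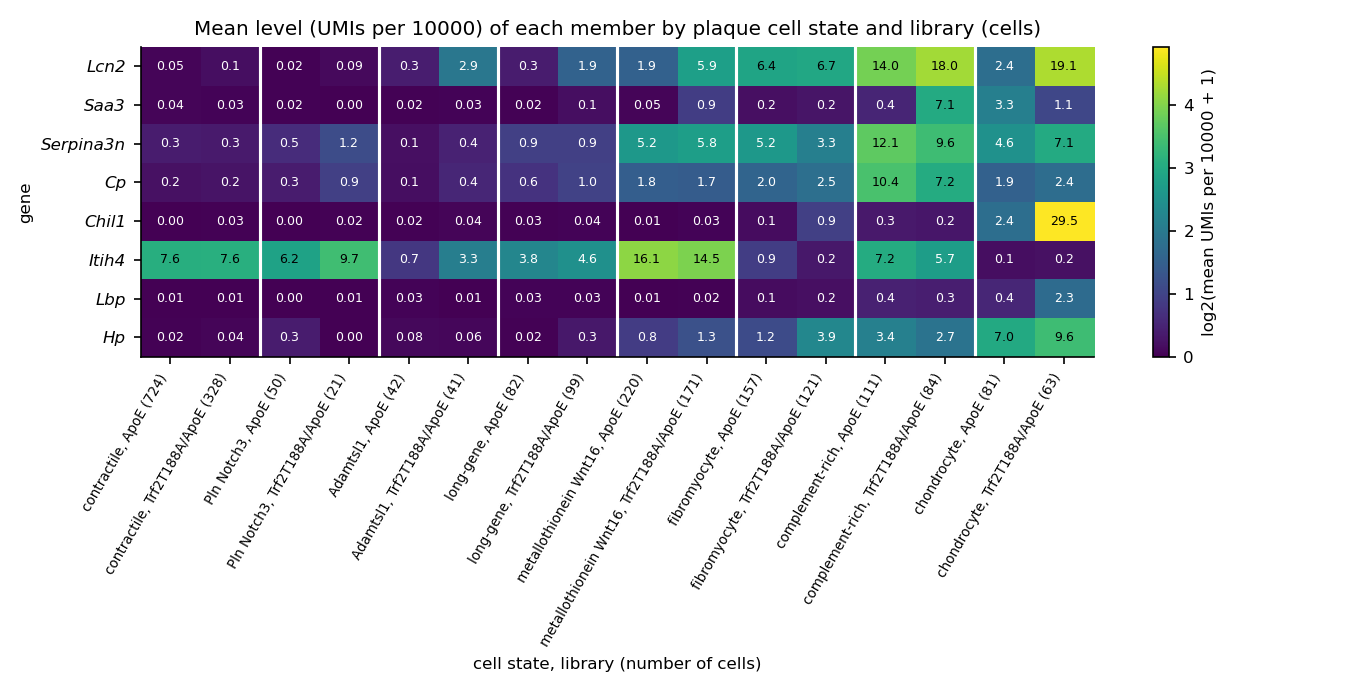
Heat map of the mean level of the 8 members, the acute-phase genes (rows), in the plaque cell states and libraries (columns, number of cells in brackets; ApoE stands for ApoE-/-). Printed numbers are UMIs per 10000 and colours are log2 of the level plus 1. Among the 5 states described, contractile cells were lowest for *Lcn2*, *Serpina3n*, *Cp* and *Hp*, whereas *Itih4* was lowest in chondrocyte-like cells (0.131 and 0.172).

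Among the genes that handle iron and haem, *Lcn2*, which encodes lipocalin-2 and withholds iron-carrying siderophores from bacteria, was at 14.0 in ApoE-/- and 18 in Trf2T188A/ApoE-/- complement-rich cells. It was at 2.42 and 19.1 in chondrocyte-like cells, 6.39 and 6.71 in fibromyocyte-like cells, 1.89 and 5.87 in metallothionein *Wnt16* cells and 0.0489 and 0.131 in contractile cells. The ranges of complement-rich and chondrocyte-like cells overlapped, so their order was not set, but each of the 4 states lay above both contractile values. *Cp* encodes ceruloplasmin, a copper-carrying ferroxidase, and was highest in complement-rich cells at 10.4 and 7.17. Its levels in fibromyocyte-like cells (1.99 and 2.47), chondrocyte-like cells (1.91 and 2.41) and metallothionein *Wnt16* cells (1.77 and 1.71) lay close together, and contractile cells held 0.173 and 0.191. A UMI of *Cp* was found in 97.3% and 95.2% of complement-rich cells. *Hp* encodes haptoglobin, which binds free haemoglobin, and was at 7.01 and 9.62 in chondrocyte-like cells, 3.43 and 2.66 in complement-rich cells, 1.20 and 3.88 in fibromyocyte-like cells and 0.0243 and 0.0423 in contractile cells.

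*Serpina3n*, an inhibitor of serine proteases, was at 12.1 and 9.60 in complement-rich cells. Chondrocyte-like cells (4.61 and 7.11), metallothionein *Wnt16* cells (5.16 and 5.80) and fibromyocyte-like cells (5.22 and 3.35) overlapped in level, and contractile cells were at 0.298 and 0.276. *Itih4* encodes a heavy chain of the inter-alpha-trypsin inhibitor family. It was at 7.57 and 7.62 in contractile cells, where 90.9% and 89.3% of cells held a UMI, and at 16.1 and 14.5 in metallothionein *Wnt16* cells. Complement-rich cells held 7.20 and 5.69, fibromyocyte-like cells 0.858 and 0.243, and chondrocyte-like cells 0.131 and 0.172. The gene was thus 0.0197 times as high in chondrocyte-like as in contractile cells of both libraries, and 2.03 times as high in metallothionein *Wnt16* cells.

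*Saa3*, a serum amyloid A gene used mostly outside the liver, and *Lbp*, whose product delivers bacterial lipopolysaccharide to its receptor, had lower counts. *Saa3* was at 0.427 and 7.08 in complement-rich cells, 3.35 and 1.07 in chondrocyte-like cells and 0.0409 and 0.0330 in contractile cells, and the library with the higher level differed between the first and second of these states. *Lbp* was at 0.445 and 2.32 in chondrocyte-like cells, 0.365 and 0.327 in complement-rich cells, 0.120 and 0.154 in fibromyocyte-like cells and under 0.01 in both contractile libraries. *Chil1* encodes a chitinase-like protein (YKL-40 in humans) that lacks enzyme activity and is made by chondrocytes among other cells. It was at 2.42 and 29.5 in chondrocyte-like cells, 0.119 and 0.915 in fibromyocyte-like cells, 0.257 and 0.226 in complement-rich cells and 0.00295 and 0.0254 in contractile cells.

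Free RNA in droplets gives UMIs in cells that do not use a gene, and the share in contractile cells is given as the nearest measure of it. For *Lcn2*, 6.08% of ApoE-/- and 13.4% of Trf2T188A/ApoE-/- contractile cells held a UMI at median depths of 21576 and 24069. The complement-rich shares were 69.4% and 88.1% at median depths of 25221 and 29372. With every cell thinned to 8000 UMIs (92 and 122 shallower cells left out), the *Lcn2* shares were 3.11% and 4.10% in contractile and 62.6% and 80.8% in complement-rich cells.

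In chondrocyte-like cells, the genotypes differed in 6 of the 8 genes by the size rule. The genes *Lcn2*, *Serpina3n*, *Chil1*, *Lbp* and *Hp* were higher in Trf2T188A/ApoE-/-, which is 5 of 8 against 3.03% of 11145 genes, and *Saa3* was lower, against 1.96% of genes. The median log2 ratio of the 8 genes was 0.47, beside -0.00016 for all genes. The cells compared came from 1 library a genotype, so mouse, preparation and genotype cannot be told apart.

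*Chil1* had 709 UMIs over 81 ApoE-/- cells, a mean of 2.42 (2.25 to 2.61), and 8411 UMIs over 63 Trf2T188A/ApoE-/- cells, a mean of 29.5 (28.9 to 30.1). The log2 ratio with 1 added was 3.15 (3.07 to 3.24) and the plain ratio 12.2. The counts were uneven between cells. A single ApoE-/- cell held 81.1% of the level in its library, and in Trf2T188A/ApoE-/- the 4 highest of 63 cells held as much as the rest together. With the highest cell of each library left out, the means were 0.464 and 23.4 and the log2 ratio 4.06. A UMI of *Chil1* was found in 19.8% and 46.0% of the cells, or 8.97% and 42.1% after thinning.

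*Lcn2* in the same cells had 898 UMIs and a mean of 2.42 (2.27 to 2.59) in ApoE-/-, and 5261 UMIs and a mean of 19.1 (18.6 to 19.7) in Trf2T188A/ApoE-/-. The median cell was at 0 in ApoE-/- and at 6.25 in Trf2T188A/ApoE-/-, and the highest cells were at 50.9 and 145. The log2 ratio was 2.56 (2.47 to 2.65), a plain ratio of 7.90, and 2.68 without the highest cell of each library. The share of cells with a UMI was 49.4% and 81.0%, and after thinning 26.9% and 71.9%, so the higher level was spread over more cells. *Lbp* showed the same direction with 128 and 544 UMIs, at 35.8% and 65.1% of cells, and a log2 ratio of 1.20 (1.05 to 1.35). *Serpina3n* differed less, with a log2 ratio of 0.53 (0.43 to 0.64) at shares of 90.1% and 85.7% of cells.

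In chondrocyte-like cells *Saa3* rested on 1 cell in each library, and *Hp* rested on 1 cell in ApoE-/-. The highest ApoE-/- cell held 77.5% of the *Hp* level and 99.4% of the *Saa3* level of its library, and it was the same cell that held most of *Chil1*. Its levels were 440 for *Hp*, 269 for *Saa3*, 159 for *Chil1*, 50.9 for *Lcn2*, 24.0 for *Cp*, 17.7 for *Serpina3n* and 5.72 for *Lbp*, with no UMI of *Itih4*. The cell had 34968 UMIs, of which 9 were of the lineage reporter and 1 of the macrophage and neutrophil markers, and it held 53.6% of the summed level of all 8 genes over 81 cells. With the highest cell of each library left out, *Hp* was at 1.6 and 6.89 and its log2 ratio went from 0.41 to 1.60, while *Saa3* was at 0.0203 and 0.0619 and its log2 ratio went from -1.07 to 0.06. The direction for *Saa3* was thus set by 1 cell. In Trf2T188A/ApoE-/- the highest cell held 14.1% of the summed level of the 8 genes and 94.3% of the *Saa3* level. The summed level had a log2 ratio of 1.63 over all chondrocyte-like cells and 2.46 without the highest cell of each library.

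**Figure D2:**
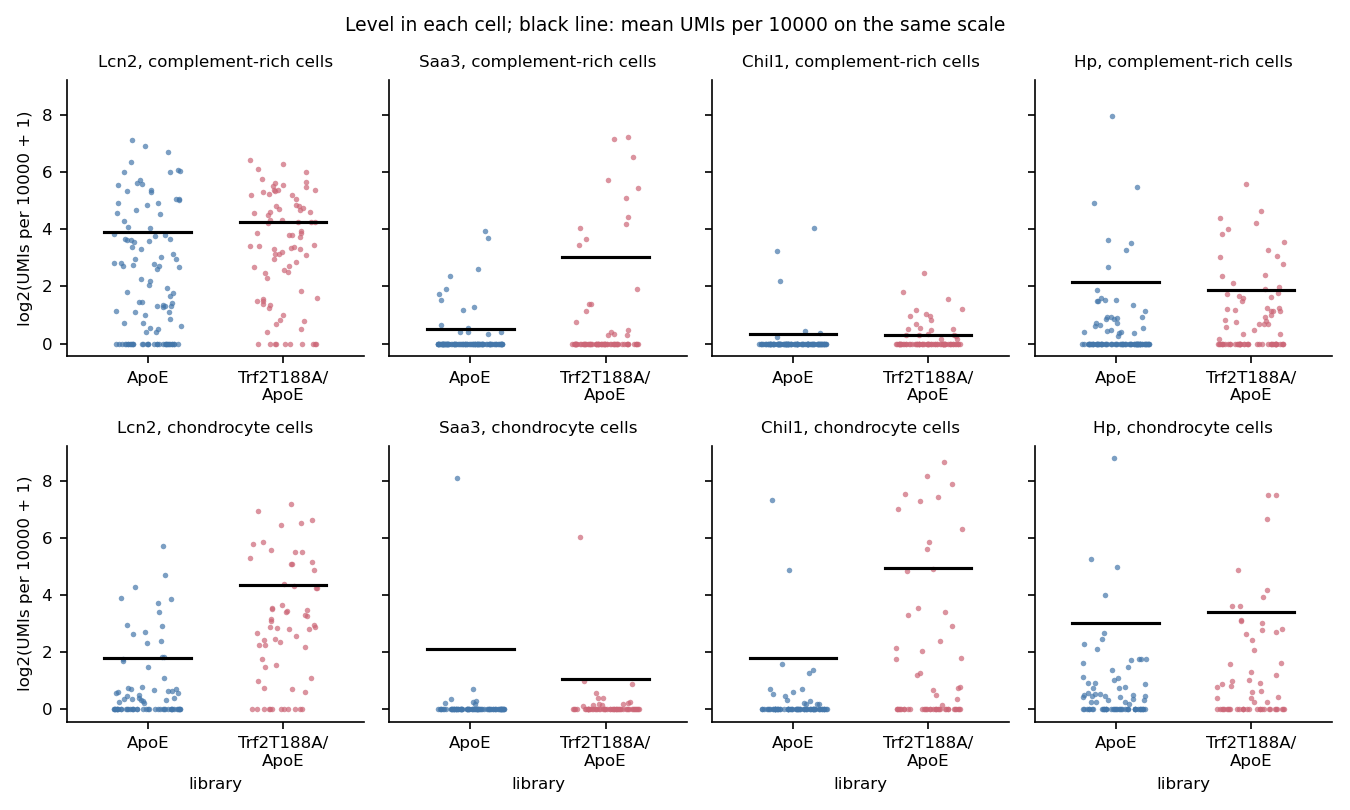
Level of *Lcn2*, *Saa3*, *Chil1* and *Hp* in each complement-rich (top) and chondrocyte-like (bottom) plaque cell by library, as log2 of UMIs per 10000 plus 1, with 1 point a cell and a black line at the mean level. In chondrocyte-like cells the highest *Hp* value, 440, belonged to a single ApoE-/- cell, while *Lcn2* values of Trf2T188A/ApoE-/- cells were spread up to 145 around a median of 6.25.

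Values that moved with genotype in chondrocyte-like cells were also recorded. A reporter UMI was found in 61.7% of ApoE-/- and 81.0% of Trf2T188A/ApoE-/- cells. The 5 adventitial fibroblast markers summed to 0.536 and 1.41, the 7 macrophage markers to 0.120 and 0.222, and of 8 neutrophil markers listed 2 and 1 had a UMI, with summed levels of 0.00514 and 0.00153. Red cell genes were at 0 in both. Of 16 genes known to be induced by tissue digestion, 6 were higher and 1 lower in Trf2T188A/ApoE-/-, against 3.03% and 1.96% of 11145 genes. Among the higher were *Dusp1* (7.48 and 12.9) and *Junb* (38.6 and 51.6). Among cells with a reporter UMI the log2 ratio of the summed level was 1.33, beside 1.63 over all cells. The part of the reporter, marker and digestion-induced values in the result was not tested.

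In complement-rich cells the direction differed by gene. *Lcn2* and *Saa3* were higher in Trf2T188A/ApoE-/-, 2 of 8 against 1.44% of 11401 genes, and *Serpina3n*, *Cp*, *Itih4* and *Hp* were lower, 4 of 8 against 1.32%. The median log2 ratio was -0.16, beside -5.5e-05 for all genes. *Lcn2* had a median cell of 2.44 in ApoE-/- and 9.84 in Trf2T188A/ApoE-/-, and a log2 ratio of 0.34 (0.28 to 0.40), although the highest cell was in ApoE-/- (139, against 84.8). *Saa3* had a UMI in 13.5% and 25% of cells and a log2 ratio of 2.50 (2.40 to 2.60), but 3 of 84 Trf2T188A/ApoE-/- cells held as much as the rest together, with a highest value of 148. Without the highest cell of each library its levels were 0.301 and 5.37.

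*Cp* was the clearest of the lower genes in complement-rich cells, with 10.4 and 7.17, a plain ratio of 0.688 and a log2 ratio of -0.48 (-0.57 to -0.40) at a nearly equal share of cells. *Serpina3n* had a log2 ratio of -0.31 (-0.38 to -0.24) and *Itih4* of -0.30 (-0.38 to -0.21). For *Hp*, 65.1% of the ApoE-/- level lay in 1 cell at 248, and without the highest cell of each library the means were 1.21 and 2.12 and the log2 ratio went from -0.28 to 0.50. More cells held an *Hp* UMI in Trf2T188A/ApoE-/- (50.0%) than in ApoE-/- (29.7%).

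In metallothionein *Wnt16* cells, *Lcn2*, *Saa3* and *Hp* were higher in Trf2T188A/ApoE-/-, 3 of the 6 genes that reached the minimum share of cells, against 0.894% of 10846 genes, and 0 were lower, against 0.406%. *Lcn2* went from 1.89 to 5.87, a log2 ratio of 1.25 (1.16 to 1.34), with a UMI in 53.8% of the Trf2T188A/ApoE-/- cells. *Itih4*, *Serpina3n* and *Cp* had log2 ratios of -0.14, 0.14 and -0.03 in these cells and did not pass the rule. In the same state 14 of the 16 digestion-induced genes were higher in Trf2T188A/ApoE-/- and 0 lower, for example *Egr1* (7.84 and 13.4), and immune markers summed to 0.737 and 1.70, with *Cd74* at 0.425 and 0.956. The part of these in the result was not tested. Without the highest cell of each library the log2 ratio of *Hp* went from 0.36 to 0.24, under the rule, and that of *Saa3* from 0.82 to 0.69.

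Fibromyocyte-like cells had *Hp* and *Chil1* higher in Trf2T188A/ApoE-/- (2 of 7 genes, against 1.17% of 11415 genes) and *Serpina3n* and *Itih4* lower (2 of 7, against 2.14%). *Hp* was at 1.20 and 3.88, a log2 ratio of 1.15 (1.02 to 1.28), and the ratio was 1.28 without the highest cells. *Serpina3n* had a log2 ratio of -0.52 (-0.61 to -0.42) and *Itih4* of -0.58 (-0.69 to -0.48). The *Chil1* value rested on 1 Trf2T188A/ApoE-/- cell with 80.0% of the level, and its log2 ratio went from 0.78 to 0.17 without the highest cells. *Lcn2* had a log2 ratio of 0.06 in fibromyocyte-like cells, and 0.29, past the rule, as a difference of mean log2 levels.

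In contractile cells, 0 of the 4 genes that reached the minimum share were higher, against 0.158% of 10138 genes, and 0 were lower, against 0.207%. Their median log2 ratio was 0.02, beside -0.00054 for all genes. The levels of *Itih4* (7.57 and 7.62) and *Cp* (0.173 and 0.191) were close in both libraries. *Lcn2* was at 0.0489 (82 UMIs) and 0.131 (105 UMIs), a plain ratio of 2.68 (1.83 to 3.91). At these low levels the log2 ratio with 1 added was 0.11, under the rule. Over all plaque cells the plain ratio of *Lcn2* was 2.44, and the part of free RNA in the contractile values was not tested.

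**Figure D3:**
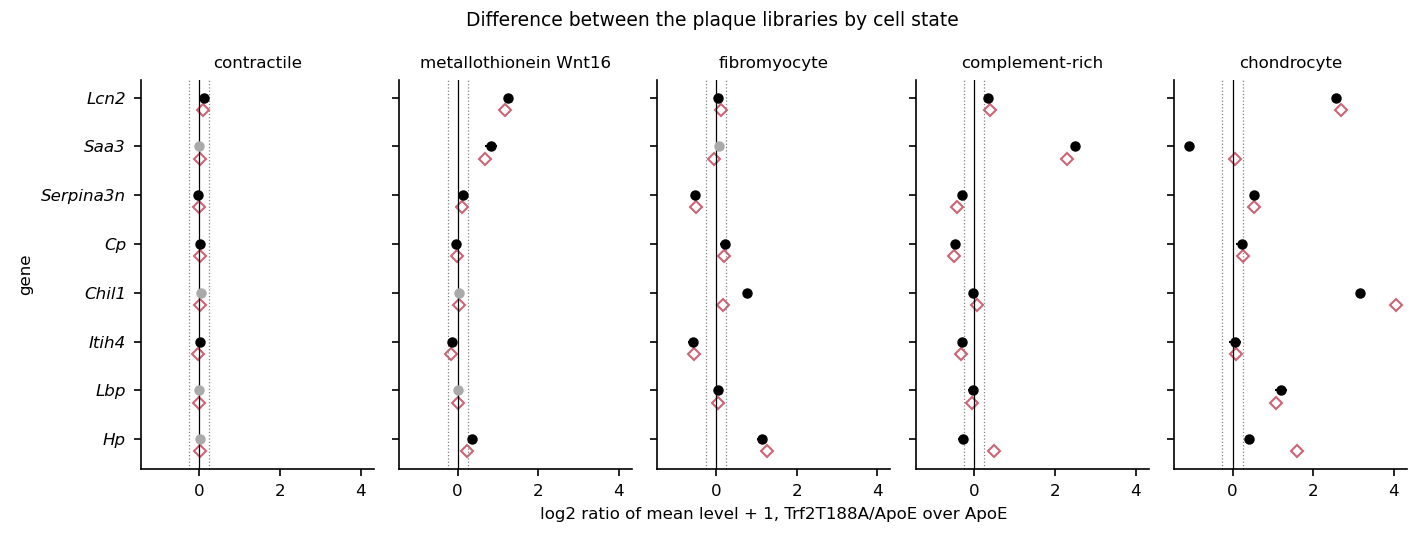
Log2 ratio of the mean level in Trf2T188A/ApoE-/- over that in ApoE-/- (1 added to both levels) for each gene and plaque state. Circles are the value over all cells with the 95% counting interval (grey where under 10% of the cells of both libraries held a UMI), open diamonds the value without the highest cell of each library, and dotted lines the size rule of 0.25. For *Saa3* in chondrocyte-like cells the circle is at -1.07 and the diamond at 0.06, while for *Lcn2* they are at 2.56 and 2.68.

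The genes were also found together in single cells. At least 4 of the 8 were detected in 64.0% of ApoE-/- and 75% of Trf2T188A/ApoE-/- complement-rich cells, in 48.1% and 69.8% of chondrocyte-like cells, in 32.3% and 43.3% of metallothionein *Wnt16* cells, in 38.2% and 36.4% of fibromyocyte-like cells and in 2.35% and 3.66% of contractile cells. At 8000 UMIs a cell, the complement-rich shares were 51.4% and 60.3%, the chondrocyte-like shares 14.1% and 52.6%, the fibromyocyte-like shares 21.9% and 10.3% and the contractile shares 0.424% and 0.683%. All 8 were detected in 4 complement-rich and 2 chondrocyte-like cells of Trf2T188A/ApoE-/- and in 0 cells of these states in ApoE-/-. Of the cells with at least 4 genes, a reporter UMI was found in 84.5% and 87.3% of complement-rich and in 64.1% and 86.4% of chondrocyte-like cells.

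**Figure D4:**
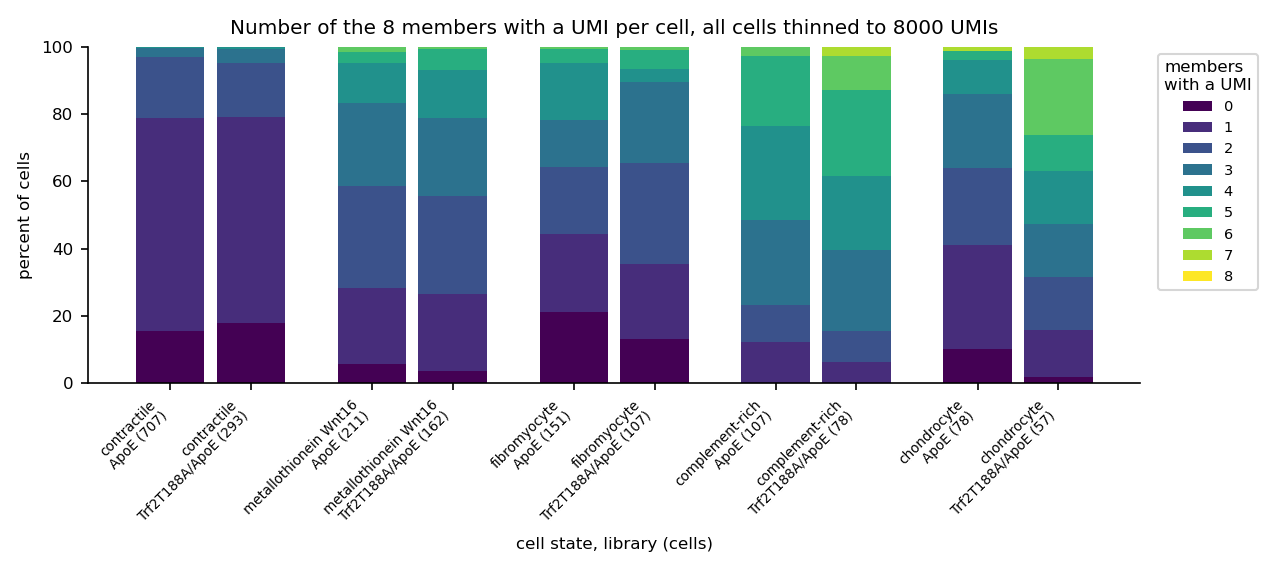
Stacked bars of the percent of cells in which 0 to 8 of the acute-phase genes (members) had a UMI, by plaque state and library, with all cells thinned to 8000 UMIs. The share with at least 4 genes was 14.1% in ApoE-/- and 52.6% in Trf2T188A/ApoE-/- chondrocyte-like cells, and 0.424% and 0.683% in contractile cells.

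Within a state, some pairs moved together across cells. Over 57 thinned Trf2T188A/ApoE-/- chondrocyte-like cells, Spearman's rho was 0.717 for *Lcn2* and *Hp*, 0.666 for *Lcn2* and *Chil1*, 0.552 for *Serpina3n* and *Chil1* and 0.517 for *Chil1* and *Hp*. In complement-rich cells of ApoE-/-, rho was 0.584 for *Lcn2* and *Serpina3n*. These cells share a library and a droplet run, and the values are descriptions. The pairs named are examples, and the other pairs and the same pairs in the other library are not given.

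Across 21 groups, each a plaque cluster in 1 library, the genes with the most similar pattern were sought among 8702 genes by Pearson's r of the log2 level. For *Lcn2* they were *Steap4* (r = 0.951), an iron and copper reductase, *Vmp1* (0.921) and *Tmem176a* (0.919). *Steap4* was also the nearest to *Saa3* (0.815), followed by *Hp* (0.810) and *Ccdc80* (0.769). *C3*, the central complement component, was the nearest to *Cp* (0.910), followed by *Vmp1* (0.902) and *Serpina3n* (0.899). For *Chil1* they were *Bpifb1* (0.941), *Lbp* (0.935) and *Lif* (0.929), a cytokine of the interleukin-6 family, and for *Lbp* they were *Chil1* (0.935), *Bpifb1* (0.922) and *Gpx3* (0.904). For *Hp* they were the cartilage gene *Comp* (0.945), *Scara3* (0.922) and *Prg4*, which encodes the joint lubricant lubricin (0.920). *Serpina3n* was nearest to *Tmem176a* (0.929), *Cp* (0.899) and *Ptpn1* (0.892). *Itih4*, which had r = -0.738 with *Chil1*, was nearest to *Net1* (0.911), *Cbr2* (0.909) and *Olfr1033* (0.9002). The groups share libraries and depth, and the values say nothing of shared control. In the ApoE-/- chondrocyte-like group, 1 cell held 99.4% of the *Saa3*, 77.5% of the *Hp* and 81.1% of the *Chil1* level, so r for these genes leans on it.

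Other acute-phase and complement genes were taken from a list of 36, of which 29 were listed in plaque. In chondrocyte-like cells 5 of the 12 that reached the minimum share were higher in Trf2T188A/ApoE-/- and 0 lower, against 3.03% and 1.96% of all genes, including *C3* (2.06 and 7.17) and the metal-binding *Mt1* (4.90 and 10.5) and *Mt2* (1.41 and 2.69). In complement-rich cells 0 of 13 were higher, against 1.44%, and 1, *Mt1* (52.5 and 41.4), was lower, against 1.32%. Between complement-rich and contractile cells of both libraries, 9 of 13 were higher in the former, against 8.48% of all genes, with *C3* at 14.1 against 0.301 and *Mt2* at 15.6 against 1.57. Since *C3* and *C4b* were among the markers used to name the complement-rich state, their levels in this contrast follow from the naming.

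Genes of the cytokine signalling that drives the response were described from a list of 24. In chondrocyte-like cells 3 of 20 were higher in Trf2T188A/ApoE-/- (3.03% of all genes) and 0 lower (1.96%), namely the NF-kappaB inhibitor *Nfkbia* (11.2 and 21), *Nfkb1* (2.15 and 3.34) and the co-regulator *Bcl3* (0.494 and 0.810). In complement-rich cells 1 of 22, *Il6* (0.841 and 1.42), was higher (1.44% of all genes) and 5 were lower (1.32%), among them *Socs3*, a feedback inhibitor of STAT3 signalling (2.77 and 1.63), and the C/EBP factors *Cebpb* (8.91 and 6.37) and *Cebpd* (6.35 and 4.94). Set against contractile cells, complement-rich cells had 18 of 21 higher, against 8.48% of all genes, including *Cebpd* (5.74 against 0.943), itself a marker used to name this state, and the oncostatin M receptor gene *Osmr* (1.73 against 0.321). Of the 16 digestion-induced genes, 11 were higher and 1 lower in that contrast. Between the genotypes, 1 of the 16 was higher and 5 were lower in Trf2T188A/ApoE-/- complement-rich cells. The part of digestion in these values was not tested. Of 18 genes for binding partners and iron storage, 10 reached the minimum share in each of these 2 states. In chondrocyte-like cells 2 were higher in Trf2T188A/ApoE-/- (3.03% of all genes) and 0 lower (1.96%). In complement-rich cells 1 was higher (1.44%) and 0 lower (1.32%). *Fth1*, the ferritin heavy chain, was higher in both chondrocyte-like (48.4 and 111) and complement-rich cells (148 and 182).

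Markers of other cells were checked where the genes were high. In complement-rich cells the 5 adventitial fibroblast markers summed to 3.08 in ApoE-/- and 3.38 in Trf2T188A/ApoE-/-, beside 0.247 and 0.313 in contractile cells, and immune markers to 1.61 and 2.64, with *Cd74* the highest (0.799 and 1.19). Endothelial markers summed to 1.55 and 1.82, beside 0.491 and 0.577 in contractile cells. Macrophage markers summed to 0.113 and 0.171, and of the neutrophil markers 2 and 1 of 8 had a UMI, with sums of 0.0115 and 0.0250. The hepatocyte markers summed to 0.440 and 0.215, of which *Ahsg* gave 0.426 and 0.214. A reporter UMI was found in 76.6% and 82.1% of complement-rich cells, beside 91.3% and 93.6% of contractile cells. Between complement-rich and contractile cells, the summed level of the 8 genes had a log2 ratio of 2.45 over all cells. It was 2.59 among cells with a reporter UMI, and below 2.45 without cells holding a macrophage or neutrophil marker UMI. The part of other cells in the levels was not tested.

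In the ligated carotid artery, only *Itih4* and *Cp* reached the minimum share of cells in the smooth muscle states. The other genes had few UMIs over all cells of the control and Trf2T188A libraries, namely 134 and 100 for *Lcn2*, 68 and 77 for *Saa3*, 51 and 35 for *Hp*, 19 and 18 for *Serpina3n*, 5 and 8 for *Lbp* and 1 and 10 for *Chil1*. At least 4 of the 8 genes were found together in 3 control and 5 Trf2T188A cells. The ligation cells were shallower than the plaque cells and came from another kind of lesion and ApoE genotype, so no level is compared between the experiments.

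Among the contractile, remodelling and de-differentiated states, *Itih4* was highest in remodelling cells, at 1.23 (1.18 to 1.28; 2333 UMIs) in 2047 control cells and 3.29 (3.21 to 3.37; 7322 UMIs) in 1918 Trf2T188A cells. A UMI was found in 46.5% and 65.3% of the cells, and in 34.3% and 51.3% with each cell thinned to 5000 UMIs. The log2 ratio was 0.94 (0.90 to 0.99), a plain ratio of 2.68, and *Itih4* was the 1 of 2 genes called higher, against 1.51% of 8025 genes, with 0 called lower, against 0.785%. In clusters drawn at a finer resolution, where the named state kept 49.6% of its cells, the log2 ratio was 0.45. Immune markers in the remodelling cells summed to 0.291 and 0.133 and macrophage markers to 0.0737 and 0.0732.

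In contractile cells of the ligated artery *Itih4* was at 0.714 and 0.935 and *Cp* at 0.302 and 0.265, and 0 of 2 genes were called higher (0.817% of 8327 genes) or lower (0.192%). In de-differentiated cells *Itih4* was at 0.649 and 0.926 and *Cp* at 2.10 and 2.48, and again 0 of 2 were called higher (1.06% of 8289 genes) or lower (0.555%). *Cp* itself set the states apart. It was 8.14 times as high in de-differentiated as in contractile cells of both libraries, the 1 of 2 genes called higher there against 5.06% of 8347 genes, with a UMI in 59.3% of control and 68.0% of Trf2T188A de-differentiated cells. In remodelling cells *Cp* was at 0.0507 and 0.117, and in the endothelial cells of the same libraries at 2.96 and 3.59. Endothelial markers summed to 0.305 and 0.302 in de-differentiated and 0.316 and 0.299 in contractile cells. Adventitial fibroblast markers, nearly all *Pdgfra*, summed to 0.626 and 0.625 in de-differentiated and 0.103 and 0.0852 in contractile cells. The part of endothelial cells or fibroblasts in the *Cp* level was not tested. Over 12 groups of a cluster in 1 library and 7959 genes, the patterns most like that of *Cp* were those of *Dcn*, the matrix proteoglycan decorin (r = 0.950), *Hnrnph1* (0.947) and *Cd34* (0.944), and those most like *Itih4* were *Enpep* (0.926), *Mmadhc* (0.914) and *Cav3* (0.910).

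**Figure D5:**
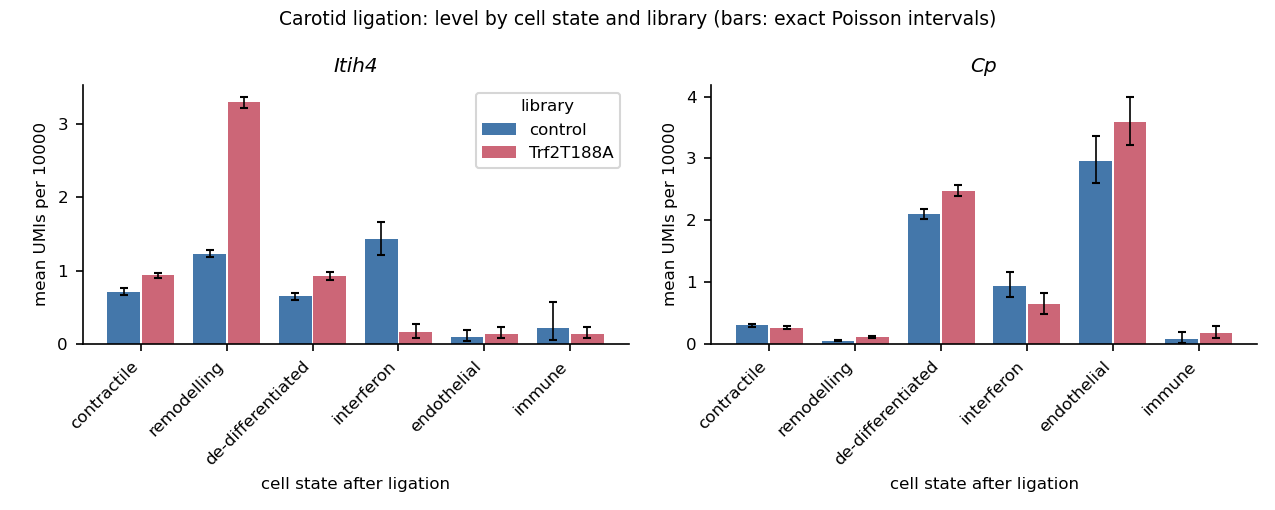
Bars show the mean level (UMIs per 10000 UMIs of a cell) of *Itih4* and *Cp* in the cell states of the ligated carotid artery in the control and Trf2T188A libraries, with the 95% counting interval as error bars. *Itih4* in remodelling cells was at 1.23 and 3.29, and *Cp* was at 2.10 and 2.48 in de-differentiated and at 2.96 and 3.59 in endothelial cells.

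*Itih4* was higher in the Trf2T188A library in remodelling cells of the ligated artery, and lower in the Trf2T188A/ApoE-/- library in fibromyocyte-like and complement-rich plaque cells. In smaller plaque states marked by *Adamtsl1* and by *Pln* and *Notch3* it was higher in Trf2T188A/ApoE-/-, with log2 ratios of 1.31 and 0.58. In 111 control and 54 Trf2T188A cells with high interferon-response genes it was at 1.42 (157 UMIs) and 0.162 (13 UMIs), a log2 ratio of -1.06 (-1.24 to -0.88). Immune markers in these cells summed to 6.45 in control (a UMI in 31 of 111 cells, with *Cd74* at 4.73) and 0.0133 in Trf2T188A (1 of 54 cells), and their part in the *Itih4* difference was not tested.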

How the data were processed

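Droplet-based (10x) single-cell RNA sequencing of mouse arteries was analysed in 4 libraries. The authors aligned reads to GRCm38 with Cell Ranger (7.0.0 for plaque, 6.1.2 for ligation), filtered cells, kept plaque clusters with the Confetti reporter and used Seurat (3.2.1 and 4.3.0). The deposited values are a signal, UMIs of a gene per 10000 UMIs of the cell. Whole UMIs were recovered from the steps between values, and 100% of values came out within 0.01 of a whole UMI. Total UMIs were 37869934 (ApoE-/-), 24064570 (Trf2T188A/ApoE-/-), 47713453 (control) and 67426588 (Trf2T188A ligation).

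Cells were clustered with Seurat 5.3.0 in R 4.3.3 on 2000 variable genes without the 8 genes described (18 components and resolution 0.9 for plaque, 17 and 0.2 for ligation). A cluster was named where at least 3 markers of a list had a log2 excess of at least 0.5 over the other cells. The mean log2 excess of the list also had to be at least 0.5. It stayed unnamed if its 10 leading genes held more markers of another list than of its own. Contractile plaque cells joined 3 clusters. Later steps used Python 3.11.15 with scanpy 1.11.5, numpy 2.4.6, scipy 1.17.1 and pandas 2.3.3. Doublets were not removed, since Scrublet marked 3 cells at most in a library, and the 5% of cells with the highest scores were left out as an alternative instead.

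With 1 library a genotype no test was made. Levels have exact Poisson 95% intervals, and log2 ratios (1 added to both mean levels) have intervals from the counts, which cover counting error only. A gene was called higher or lower past a log2 ratio of 0.25 where at least 10% of cells of either library held a UMI. The interval formula was checked on simulated counts in which a gene had the same rate in every cell of a library and state. That check did not cover genes of low level or counts as uneven between cells as those described. The genes, gene lists and alternatives were chosen with earlier results of these data known. All 8 genes are named in the text, with the 3 genes most alike in pattern where a gene was high enough for it, and members of the lists among the 3 largest differences in a direction. *Lbp* and *Hp* had no promoter entry in the table used, and a looser C/EBP motif was searched before the stricter one reported.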

Additional observations from a re-analysis of the deposited data

Results flagged for a closer look

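Differences between the libraries had opposite signs in different states for the protease inhibitor genes *Serpina3n* and *Itih4*. Each had a counting interval that left out 0, but this interval covers counting error only. For *Serpina3n* the log2 ratio of Trf2T188A/ApoE-/- over ApoE-/- was -0.52 in fibromyocyte-like cells and -0.31 in complement-rich cells, but 0.53 in chondrocyte-like cells. For *Itih4* it was -0.58 in fibromyocyte-like and -0.30 in complement-rich plaque cells, and 0.94 in remodelling cells of the ligated artery. Signs of *Itih4* also differed within each experiment. Smaller plaque states marked by *Adamtsl1* and by *Pln* and *Notch3* were at 1.31 and 0.58, and cells with high interferon-response genes after ligation were at -1.06. Some of these calls depended on the measure. By mean log2 levels, *Serpina3n* was no longer called lower in fibromyocyte-like cells, nor *Itih4* in complement-rich cells. With a fold of 0.5 neither gene was called lower in complement-rich cells. With 1 library a genotype the difference between states or experiments was not tested.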

How the results depend on the processing

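No paired analysis was possible because each genotype had 1 library in each experiment. Leaving out the highest cell of each library and leaving out cells with no reporter UMI were chosen after seeing the data.

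The log2 ratio of the summed level of the 8 genes between complement-rich and contractile plaque cells was 2.45, becoming 2.48 once the 5% of cells of highest doublet score were dropped, 2.35 without cells holding a macrophage or neutrophil marker UMI, 2.53 with cells thinned, 2.66 from summed UMIs over summed totals, 2.59 without cells lacking a reporter UMI and 2.40 without the highest cells. The log2 ratio of the sum between genotypes in chondrocyte-like cells was 1.63, and it was 1.39 at 1.5 times the resolution, 2.38 without cells holding a macrophage or neutrophil marker UMI, 1.75 with cells thinned, 1.92 from summed UMIs, 1.33 without cells lacking a reporter UMI and 2.46 without the highest cells. *Itih4* in ligation remodelling cells went from 0.94 to 0.45 at 2 times the resolution, 1.35 with 0.1 added in place of 1 and 0.63 as a difference of mean log2 levels.

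With a fold of 0.5 in place of 0.25, 1 gene in place of 2 was higher and 0 in place of 4 lower in complement-rich cells. With mean log2 levels, 2 in place of 4 were lower there, 1 in place of 3 was higher in metallothionein *Wnt16* cells and 1 in place of 2 lower in fibromyocyte-like cells. Calls were also gained: *Cp* was higher in chondrocyte-like cells, which made 6 in place of 5, with 0.1 added (0.32) and by mean log2 levels (0.29), *Cp* was higher in fibromyocyte-like cells with 0.1 added (0.30), and by mean log2 levels *Hp* was higher in complement-rich cells, making 3 in place of 2, and *Lcn2* replaced *Chil1* in fibromyocyte-like cells. After thinning, at least 4 genes were found in 55.1% in place of 68.7% of complement-rich cells of both libraries, and *Lcn2* in 26.9% in place of 49.4% of ApoE-/- chondrocyte-like cells.

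Of 453 values under alternatives for 48 single-gene results past the fold, 7 changed sign: *Hp* in metallothionein *Wnt16* cells (-0.0402 at a lower resolution), *Chil1* in fibromyocyte-like cells (-0.0397 without high doublet scores), *Hp* in complement-rich cells (0.45 by mean log2 levels, 0.50 without the highest cells) and *Saa3* in chondrocyte-like cells (1.21 without macrophage or neutrophil marker cells, 0.0413 by mean log2 levels, 0.0576 without the highest cells). The cause was not tested beyond the single cells named in the report. At the lower resolution no cluster was named complement-rich or, in ligation, contractile, so those values were not run.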

Other observations

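A plaque cluster of 14 ApoE-/- cells stayed unnamed: its 5 adventitial fibroblast markers summed to 19.8, beside 20.01 in the 21 ApoE-/- cells named adventitial fibroblast, but its 10 leading genes held 0 of them and 2 markers of another list, and a reporter UMI was found in 1 of the 14 cells. *Cp*, the ceruloplasmin gene, was at 7.69 UMIs per 10000 in these cells and was detected in 92.9% of them. In a small state marked by *Adamtsl1* (42 ApoE-/- and 41 Trf2T188A/ApoE-/- cells), *Lcn2* was at 0.306 and 2.90 and *Itih4* at 0.730 and 3.30, and in cells high in *Pln* and *Notch3* (50 and 21) *Itih4* was at 6.18 and 9.75. In a state of long genes (82 and 99 cells), *Lcn2* was at 0.301 and 1.93, and the log2 ratio of 1.17 was 0.59 without the highest cell of each library.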
